A study of Mus musculus with 4 samples.

Results

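Neurexins, neuroligins and contactin-associated proteins were followed as 8 genes, NRXN2, NRXN3, NLGN1, NLGN2, NLGN3, CNTNAP1, CNTNAP2 and CNTNAP4, taken by symbol from the spatial expression tables of 4 mouse brain organoid sections. The tables listed between 20800 and 21639 genes per section and 22218 in all, and each of the 8 was listed in every section. The organoids came from CARLIN/Cas9 mouse embryonic stem cells, a line with a lineage barcode and the Cas9 nuclease that all 4 groups share, and were 3 months old. From day 9 the VitaminA group received 2% B27 supplement with vitamin A. The other groups received retinoid ligands in its place: ATRA (all-trans retinoic acid, which activates all retinoic acid receptors) at 1 µM, BMS753 (an agonist of receptor alpha) at 1 µM, or BMS961 with BMS641 (agonists of receptors gamma and beta) at 0.1 µM. Doses therefore match between ATRA and BMS753 only. Each group is 1 section on an array of barcoded poly-T spots, with 552 spots for VitaminA, 593 for ATRA, 469 for BMS753 and 365 for BMS961+BMS641, and several organoids were frozen in a mold. With 1 section per group no difference between treatments could be tested, and all values below describe these sections.

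Neurexins are presynaptic membrane proteins that bind postsynaptic neuroligins across the synaptic cleft, and different isoforms and partners help set which kind of synapse is made. NLGN1 is known mainly from excitatory synapses and NLGN2 from inhibitory synapses, while NLGN3 is found at both. Contactin-associated proteins are relatives of neurexins: CNTNAP1 sits beside the nodes of myelinated axons, CNTNAP2 in the adjoining stretch of axon, where it gathers potassium channels, and CNTNAP4 is known from interneuron synapses. Several of these genes are among the longest of the genome and have been linked to autism and other neurodevelopmental conditions.

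Promoter windows are shown because the groups differ in ligands of nuclear receptors that bind DNA at hexamer sites. RefSeq windows of 300 bases, from 250 before to 50 after an annotated start (GRCm38.p6), were matched to 4 of the 8 genes, with 8 windows in all. Their coordinates are of that build and not of mm9, the build named for the expression tables. Both strands were searched for the receptor hexamer AGGTCA and for its variants (the letters GGGTCA, then AGTTCA, then GGTTCA). One AGTTCA, in capitals, lay in a window of NLGN1 at position -155 from the start, and one in the window of NLGN2 at position -244. The other NLGN1 window and the first window of CNTNAP2 are shown for comparison and hold none of these letters.
NLGN1, chr3:26153937-26154236, minus strand: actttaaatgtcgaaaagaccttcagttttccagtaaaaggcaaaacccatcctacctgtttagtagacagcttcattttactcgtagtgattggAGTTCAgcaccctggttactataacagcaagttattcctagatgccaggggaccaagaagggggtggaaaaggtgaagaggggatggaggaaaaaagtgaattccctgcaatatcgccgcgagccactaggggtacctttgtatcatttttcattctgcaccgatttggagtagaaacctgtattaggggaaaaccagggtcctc
NLGN1, chr3:26331860-26332159, minus strand: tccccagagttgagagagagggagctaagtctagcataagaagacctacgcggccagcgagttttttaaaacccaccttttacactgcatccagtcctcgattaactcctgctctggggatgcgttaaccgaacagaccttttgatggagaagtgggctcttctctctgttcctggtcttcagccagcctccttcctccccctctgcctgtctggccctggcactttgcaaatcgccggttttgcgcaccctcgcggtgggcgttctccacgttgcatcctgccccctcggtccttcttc
NLGN2, chr11:69837735-69838034, minus strand: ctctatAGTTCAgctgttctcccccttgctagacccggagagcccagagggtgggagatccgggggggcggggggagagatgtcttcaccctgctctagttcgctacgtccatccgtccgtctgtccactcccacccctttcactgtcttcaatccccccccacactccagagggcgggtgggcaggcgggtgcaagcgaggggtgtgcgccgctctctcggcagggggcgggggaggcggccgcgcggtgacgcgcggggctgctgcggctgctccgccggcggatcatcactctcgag
CNTNAP2, chr6:45059811-45060110, plus strand: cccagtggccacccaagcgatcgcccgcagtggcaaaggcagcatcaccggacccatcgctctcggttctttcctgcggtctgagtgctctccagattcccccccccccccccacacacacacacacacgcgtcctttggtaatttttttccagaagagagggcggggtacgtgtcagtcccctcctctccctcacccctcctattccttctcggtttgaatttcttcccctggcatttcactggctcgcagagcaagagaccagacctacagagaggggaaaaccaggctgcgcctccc
Of 32851 RefSeq promoter windows of this length, 43.7% held at least 1 of these hexamers. No window of the 8 held a direct repeat of hexamers with a spacer of 1, 2 or 5 bases, which 0.222%, 0.268% and 0.0974% of all windows held. The CpG count was 26 in the NLGN2 window, 14 in the CNTNAP2 window shown and 6 and 14 in the NLGN1 windows, in the order printed, against a median of 7 over all windows. A match of letters is a description of the window and no site of binding.

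The genomic spans of the 8 genes set them apart into long and short genes. In RefSeq GRCm38.p6 CNTNAP2, on chromosome 6, spans 2241 kb, NRXN3, on chromosome 12, spans 1612 kb and NLGN1, on chromosome 3, spans 911.1 kb, which put all 3 in the class of 500 kb and over. CNTNAP4, on chromosome 8, spans 312.9 kb and NRXN2, on chromosome 19, spans 114.5 kb. The other 3 are short: NLGN3, on chromosome X, spans 22.17 kb, CNTNAP1, on chromosome 11, spans 16.11 kb and NLGN2, also on chromosome 11, spans 14.66 kb. These 3 lay at the 56.5th, 47.4th and 44.7th percentile of the spans of all genes, so a very long span does not describe the whole group.

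Levels are given as the mean signal of a gene over all spots, in ppm of the section's summed signal. A gene was counted as seen in a spot where its value lay above the spot's lowest class, a run of low values that rises with the order of genes in the file. That run was read here as equal ranks split by file order, which is an inference from the values and is not stated in the labels, and what counts as seen rests on it. That class held between 45.7% and 70.3% of the positive values of a section and between 5.64% and 13.8% of its signal. The median number of genes seen per spot was 4659, 3388, 3330 and 4462 in the order VitaminA, ATRA, BMS753, BMS961+BMS641. Counts were not given in the tables, which leaves spot depth unknown. Ranges over the 4 quadrants of a section give the variation within that section, and quadrants are not replicates. As a check of the tissue label, all 11 neuronal markers of a list (such as Tubb3, Map2 and Snap25) were listed in every section at 5 ppm or more, with a summed level of 746 to 1268 ppm, much of it from the long genes RBFOX3 (421.8 kb) and SYT1 (513.3 kb). Of 6 neural progenitor markers 4 or 5 were listed and 1 or 2 reached 5 ppm. Most of these genes are short (HES5 spans 1.747 kb and NES 9.359 kb), and level follows span in these tables. In VitaminA, NES stood at 3.496 ppm, HES5 at 2.272 ppm, VIM at 1.371 ppm and FABP7 at 0.96 ppm. The median of genes under 10 kb there was 2.483 ppm. Whether span accounts for these low levels was not tested. In BMS961+BMS641 the 4 epithelial markers summed to 1445 ppm, above the 1268 ppm of the neuronal markers.

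CNTNAP2, which gathers potassium channels along axons, was measured at 1365 ppm in VitaminA, 544.8 ppm in ATRA, 871.7 ppm in BMS753 and 1284 ppm in BMS961+BMS641. The VitaminA and BMS961+BMS641 sections were high, with overlapping quadrants, and the ATRA section was low, with all quadrants (449.8 to 653.3 ppm) below those of every other section. It was seen in 96.6% to 99.8% of spots, so the sections differed in its level and hardly in how many spots held it. Over single spots of the VitaminA section its deposited signal ran from 0 to 5349 with a median of 628.2, and in ATRA from 0 to 6763 with a median of 112.4.

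CNTNAP4, known from interneuron synapses, was measured at 282.7 ppm in VitaminA, 86.14 ppm in ATRA, 148.9 ppm in BMS753 and 95.44 ppm in BMS961+BMS641. VitaminA was the high section, with quadrants from 269 to 316.5 ppm, and its lowest quadrant lay above the highest quadrant of each other section (123.5, 175.7 and 97.16 ppm). Detection was also highest in VitaminA and lowest in ATRA: 92.6% of spots in VitaminA (exact 95% interval 90.1% to 94.6%), 57.3% in ATRA (53.2% to 61.4%), 67.0% in BMS753 (62.5% to 71.2%) and 74.5% in BMS961+BMS641 (69.7% to 78.9%). The intervals cover the counting of spots only. Among spots with 3000 to 5000 genes seen, which removes most of the difference in genes seen, the shares were 91.9%, 62.6%, 73.6% and 73.6% in the same order of sections. The choice of these spots was made after the data were seen.

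**Figure D1:**
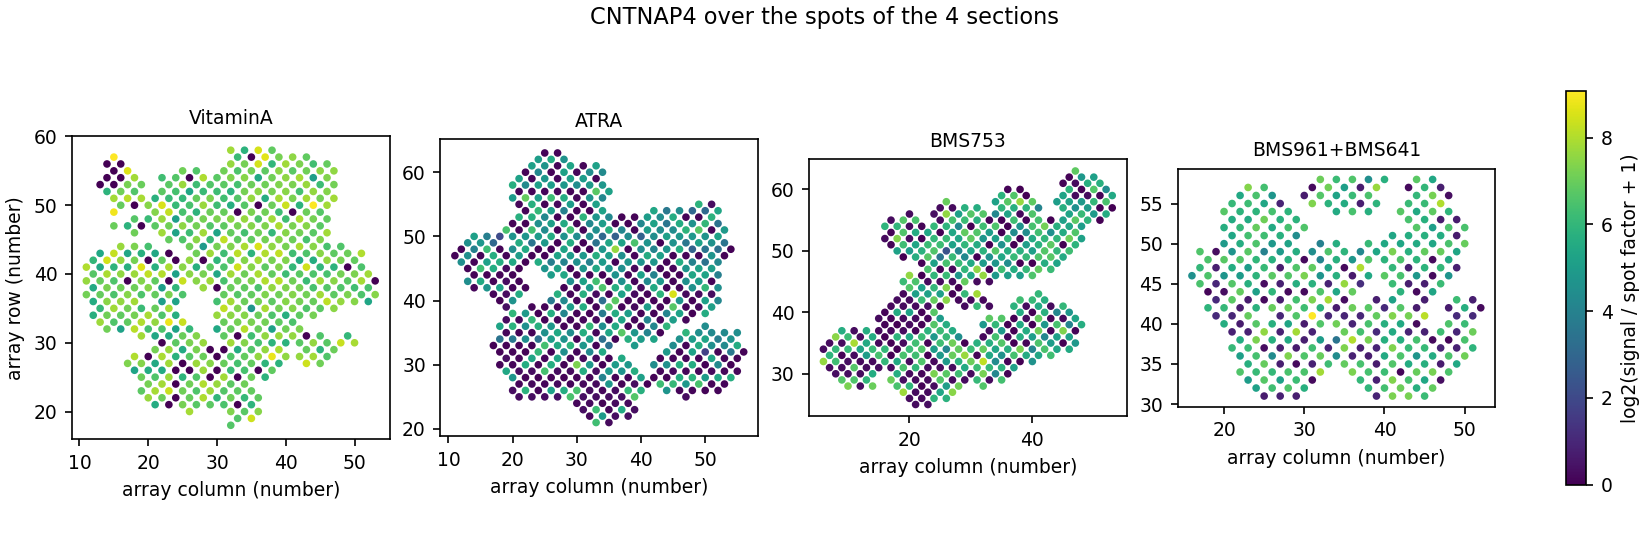
Each point is an array spot at its column and row number, coloured by log2 of the CNTNAP4 signal divided by the spot factor, plus 1. The spot factor is the summed signal of a spot over the section's median. Spots at or near 0 are scattered through the ATRA, BMS753 and BMS961+BMS641 sections and are few in VitaminA, where CNTNAP4 was seen in 511 of 552 spots.

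CNTNAP1, the paranodal member, was measured at 64.62 ppm in VitaminA, 57.09 ppm in ATRA, 92.95 ppm in BMS753 and 54.85 ppm in BMS961+BMS641. BMS753 was highest, but its quadrants ran from 47.76 to 122.7 ppm and overlapped those of every other section. It was seen in 28.4%, 16.0%, 16.0% and 27.7% of spots in the same order of sections, so BMS753, the section with the highest level, was one of the 2 with the lowest detection. The lowest class supplied 44.1%, 69.1%, 69.6% and 49.8% of its level in these sections. The list of oligodendrocyte and Schwann cell markers, the cells that make the myelin beside which CNTNAP1 sits, summed to 284.7 ppm, 234.6 ppm, 240.7 ppm and 199.8 ppm, with 8, 6, 7 and 6 of 10 markers at 5 ppm or more. Their part in the CNTNAP1 levels was not tested.

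Of the neurexins, NRXN3 was measured at 755.3 ppm in VitaminA, 588.2 ppm in ATRA, 772.7 ppm in BMS753 and 847.6 ppm in BMS961+BMS641. It varied less between sections than the other members: the highest section was 1.44 times the lowest on the scale of ratios used below, though all ATRA quadrants (551.2 to 607.8 ppm) lay below all quadrants of the other sections. It was seen in 99.5%, 97.0%, 95.3% and 100% of spots, including all 365 spots of BMS961+BMS641. NRXN2 was measured at 85.31 ppm, 36.04 ppm, 86.39 ppm and 65.82 ppm in the same order of sections. ATRA was low, with its highest quadrant at 43.41 ppm against a lowest quadrant of 57.26 ppm elsewhere, and the other 3 sections formed a chain of overlapping neighbours. NRXN2 was seen in 73.9%, 45.4%, 55.4% and 71.2% of spots, again in that order.

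Of the neuroligins, NLGN1, the excitatory member, was measured at 284.7 ppm in VitaminA, 192.5 ppm in ATRA, 252.5 ppm in BMS753 and 123.3 ppm in BMS961+BMS641. The BMS961+BMS641 section was low, with its highest quadrant at 153.2 ppm and the lowest quadrant elsewhere at 162.3 ppm. Detection did not follow: NLGN1 was seen in 96.9%, 82.0%, 84.4% and 86.6% of spots, so that BMS961+BMS641 had the second highest share and the lowest level. Within spots of 3000 to 5000 genes seen, its share was 83.6% in BMS961+BMS641 and 91.1% to 96.5% in the others.

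NLGN2, the inhibitory member, was measured at 65.59 ppm in VitaminA, 33.40 ppm in ATRA, 74.96 ppm in BMS753 and 32.76 ppm in BMS961+BMS641. VitaminA and BMS753 overlapped at the high end and ATRA and BMS961+BMS641 at the low end, with no quadrant of one pair among those of the other. It was seen in 40.9%, 18.5%, 27.7% and 23.8% of spots, and the lowest class supplied 15.4%, 49.6%, 38.1% and 46.1% of its level. NLGN3 was measured at 38.36 ppm, 33.28 ppm, 69.83 ppm and 30.64 ppm, with BMS753 high. It was seen in 19.4%, 11.8%, 18.1% and 17.0% of spots, and the lowest class supplied 42.7%, 63.7%, 50.2% and 59.6% of its level. For the 5 longer genes that class supplied at most 0.263% of a level.

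**Figure D2:**
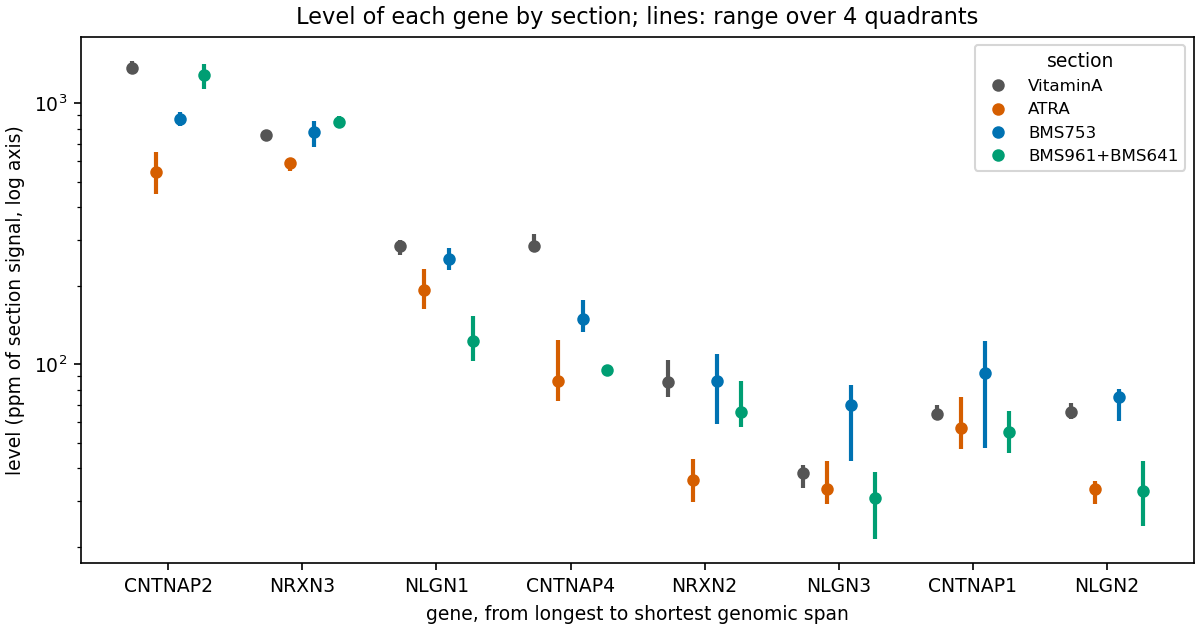
Points give the level of each gene in ppm of the section's signal on a log axis, coloured by section, and lines run from the lowest to the highest of 4 quadrants. CNTNAP4 stood highest in VitaminA at 282.7 ppm, and NLGN1 lowest in BMS961+BMS641 at 123.3 ppm, each with quadrants clear of the other sections.

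**Figure D3:**
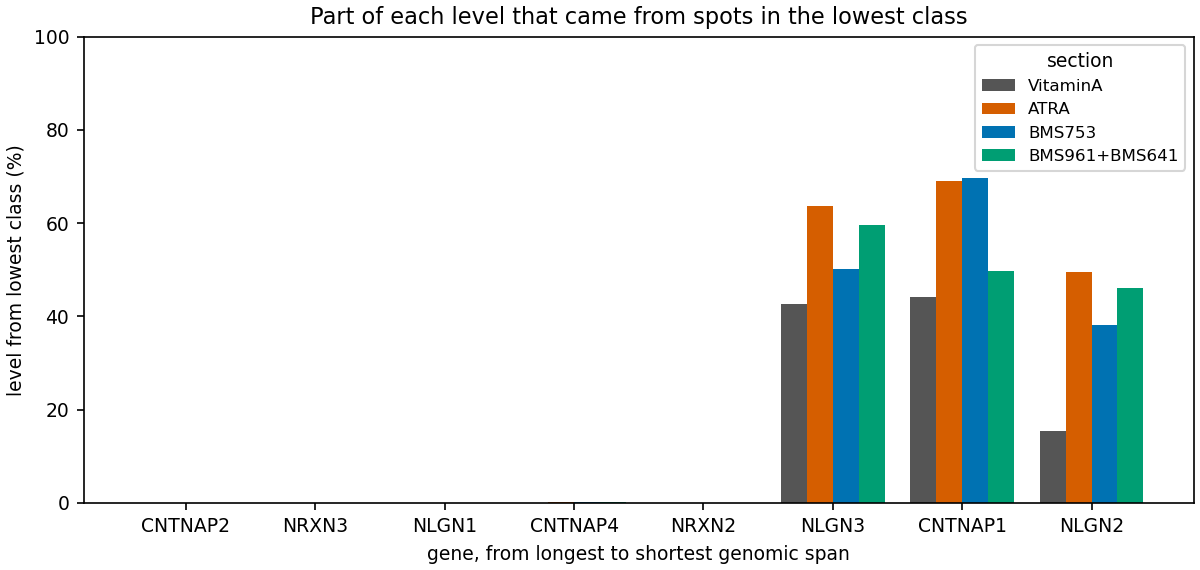
Bars give the percentage of each gene's level that came from spots where its value lay in the lowest class, by section. The share is at most 0.263% for the 5 genes over 100 kb and between 15.4% and 69.6% for NLGN3, CNTNAP1 and NLGN2.

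Levels and detection of the 8 genes followed genomic span. Over the 8 genes, the Spearman correlation of span with level was 0.905, 0.857, 0.881 and 0.929 in VitaminA, ATRA, BMS753 and BMS961+BMS641. Over all genes with a span, such as 21612 in VitaminA, it was 0.710, 0.631, 0.638 and 0.639, where genes share the library and are not independent. CNTNAP2 and NRXN3 together made up 69.4% to 84.1% of the summed level of the 8 genes. Per kb of span the order was almost the reverse. In VitaminA NLGN2 stood at 4.47 ppm per kb and CNTNAP1 at 4.01, against 0.609 for CNTNAP2, 0.468 for NRXN3 and 0.313 for NLGN1. The lowest class, whose values rise with file order, supplied 15.4% of that NLGN2 level and 44.1% of that CNTNAP1 level.

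Set beside genes of like span, the members stood at different heights. CNTNAP2 lay at the 96.9th percentile of level among 226 genes of 500 kb and over in VitaminA and in BMS961+BMS641, and at the 72.6th in ATRA. NLGN1 lay below the median of that class in all 4 sections, at the 40.7th percentile in VitaminA and the 9.29th in BMS961+BMS641. CNTNAP4 lay at the 91.3rd percentile of 2226 genes of 100 to 500 kb in VitaminA and at the 60.6th, 74.9th and 63.6th in ATRA, BMS753 and BMS961+BMS641. NRXN2 lay near the middle of the same class, at the 49.3rd percentile in VitaminA, and lower in ATRA, at the 26th. NLGN2, NLGN3 and CNTNAP1 lay above the 75th percentile of level among genes of 10 to 100 kb in every section, at the 79.4th to the 95.6th. Their detection lay lower, at the 51.3rd to the 86.2nd. Between 15.4% and 69.6% of their levels came from the lowest class.

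**Figure D4:**
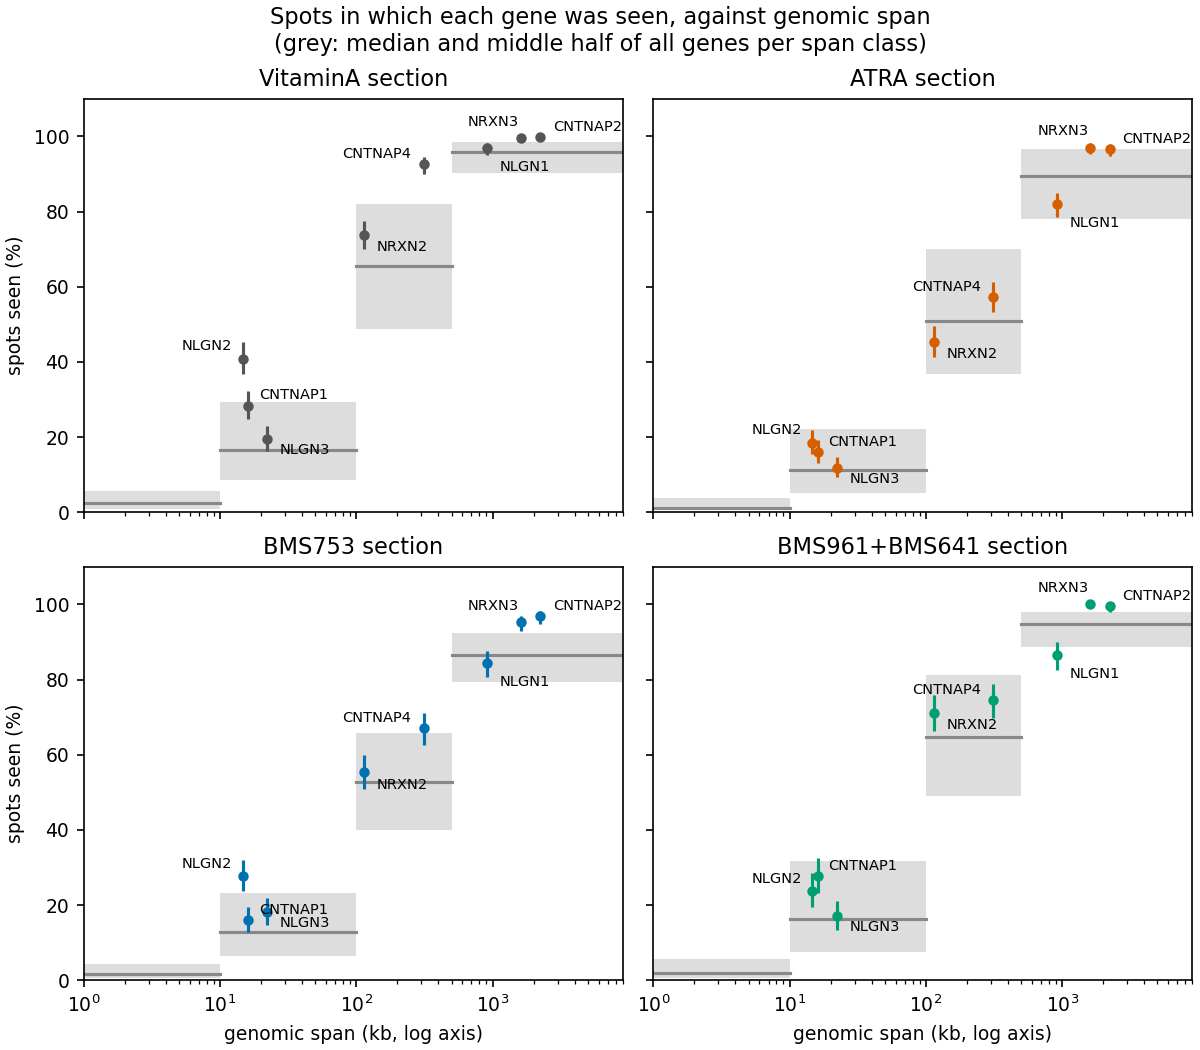
Each panel is a section; points give the percentage of spots in which a gene was seen against its genomic span in kb on a log axis, with exact 95% intervals, and grey bands give the median and the 25th to 75th percentile of all genes of a span class. CNTNAP4 stood above the band of its class in VitaminA, at 92.6% against an upper quartile of 81.9%, and inside it in ATRA, at 57.3%.

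All 8 members were lower in ATRA than in VitaminA, as were 65.0% of all genes. Log2 ratios were on the log2(ppm + 1) scale, over genes that reached 5 ppm in 1 or both sections. Those of the members ran from -1.70 to -0.18 with a median of -0.76. The median of all 14794 genes compared was -0.33. CNTNAP4 (log2 ratio -1.70, range over 16 quadrant pairs -2.11 to -1.12), CNTNAP2 (-1.32, -1.69 to -0.99) and NRXN2 (-1.22, -1.77 to -0.78) were at least 2-fold lower. That is 3 of 8, where 22.9% of all genes were at least 2-fold lower and 8.60% at least 2-fold higher. Quadrants did not overlap for 6 of the 8, where 49.2% of all genes were so. Centred on the median of all genes, CNTNAP4 alone stayed at least 2-fold lower (-1.37). Relative to that median, 6 members lay below it and NLGN3 and CNTNAP1 above it, by 0.13 and 0.16. The place of NLGN3 and CNTNAP1 did not hold under other settings. With the lowest class at 0 their log2 ratios were -0.79 and -0.97, below the median of all genes there (-0.60). Among spots with 3000 to 5000 genes seen they were -0.72 and -0.63, again below that of all genes (-0.52). Fewer cells of a type and less RNA per cell cannot be told apart in these spots.

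Between BMS753 and VitaminA, 5 members were higher and 3 lower, beside 63.8% of all genes higher and 36.2% lower. At least 2-fold apart were 0 members. The higher and lower were 3 and 5 with the lowest class at 0, and 0 and 8 by share of spots. Centred on the median of all genes, CNTNAP4 alone was at least 2-fold lower (-1.23). Of all 15676 genes 17.7% were at least 2-fold higher and 10.0% at least 2-fold lower, and their median log2 ratio was 0.31 against 0.025 for the members. CNTNAP4 (-0.92, quadrant pairs -1.25 to -0.61) and CNTNAP2 (-0.65, -0.83 to -0.49) were lower with quadrants apart, and NLGN3 was higher with quadrants apart (0.85, 0.05 to 1.29). Those 3 of 8 stood beside 38.1% of all genes. The higher level of NLGN3 came without higher detection, 18.1% of spots against 19.4%, and among spots with 3000 to 5000 genes seen its log2 ratio was -0.29. CNTNAP1 was 0.52 higher with overlapping quadrants, and -0.22 once the lowest class was set at 0. NRXN2, NRXN3, NLGN1 and NLGN2 differed by at most 0.19 in size, with overlapping quadrants.

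Between BMS961+BMS641 and VitaminA, NRXN3 was higher (0.17, quadrant pairs 0.07 to 0.27) and the other 7 members were lower. Of all genes 35.2% were higher and 64.8% lower. CNTNAP4 (-1.56, -1.77 to -1.46) and NLGN1 (-1.20, -1.53 to -0.77) were at least 2-fold lower, and NLGN2 stood just inside that limit (-0.98, -1.52 to -0.52). The 2 of 8 compare with 19.9% of all genes at least 2-fold lower and 10.2% at least 2-fold higher. Quadrants were apart for 4 of the 8, NRXN3, NLGN1, NLGN2 and CNTNAP4, and for 46.8% of all genes. CNTNAP2 differed by -0.09, within its quadrant range. The median of the members was -0.34 and that of all 14959 genes -0.26, and centred on the latter CNTNAP4 alone stayed at least 2-fold lower (-1.30).

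These 3 comparisons share the VitaminA section, so its own values enter each of them. In each, CNTNAP4 had the lowest log2 ratio of the 8 genes, at the 9.12th, 11th and 9.51st percentile of all genes for ATRA, BMS753 and BMS961+BMS641. Its sign was kept under all 13 alternative settings in each, with log2 ratios from -3.63 to -0.68, from -2.10 to -0.46 and from -2.48 to -0.31. Its place as the lowest was not kept. By share of spots NLGN2 was lower than CNTNAP4 in all 3, at -1.10, -0.55 and -0.76 against -0.68, -0.46 and -0.31. In BMS753 CNTNAP1 was lower still by that measure, at -0.79. With the lowest class at 0 NLGN2 was the lower in BMS961+BMS641, at -1.59 against -1.54. The scaling to the section sum mattered for members other than CNTNAP4. On the deposited signal without it, 16.7% of all genes were higher in ATRA than in VitaminA (35.0% with it), 42.6% in BMS753 (63.8%) and 64.2% in BMS961+BMS641 (35.2%). The members higher and lower were then 0 and 8, 2 and 6, and 5 and 3.

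**Figure D5:**
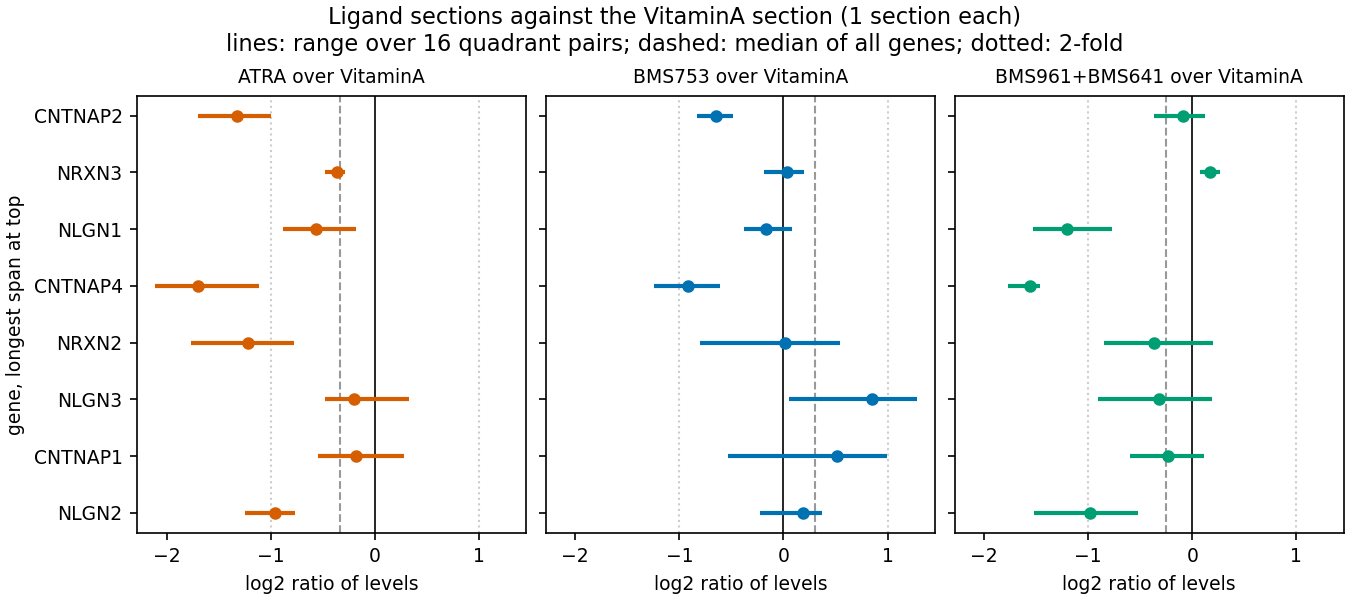
Points give log2 ratios of levels for each ligand section over the VitaminA section, lines the range over 16 quadrant pairs, the dashed line the median of all genes and dotted lines 2-fold. CNTNAP4 lay farthest to the lower side in each panel, at -1.70, -0.92 and -1.56.

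ATRA and BMS753, given at the same dose, differed in the same direction for every member: all 8 were higher in BMS753, as were 80.4% of all genes, and the medians were 0.74 for the members and 0.71 for all 14902 genes. NRXN2 (1.24, quadrant pairs 0.43 to 1.85), NLGN2 (1.14, 0.74 to 1.42) and NLGN3 (1.05, 0.00 to 1.49) were at least 2-fold higher. The 3 of 8 stood beside 26.4% of all genes at least 2-fold higher and 7.39% at least 2-fold lower. Among spots with 3000 to 5000 genes seen the log2 ratio of NLGN3 was 0.43, short of 2-fold, and centred on the median of all genes none of the 3 was at least 2-fold higher. Quadrants were apart for 5 of the 8 and for 44.2% of all genes.

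Between BMS961+BMS641 and ATRA, whose doses differ, 4 members were higher and 4 lower. The higher and lower were 7 and 1 with the lowest class at 0, and likewise among spots with 3000 to 5000 genes seen. By share of spots they were 8 and 0. CNTNAP2 was at least 2-fold higher (1.24, quadrant pairs 0.79 to 1.65), the only 1 of 8, where 15.6% of all genes were at least 2-fold higher and 11.7% at least 2-fold lower. NRXN2 (0.85) and NRXN3 (0.53) were higher and NLGN1 (-0.64) lower with quadrants apart, which makes 4 of 8 with CNTNAP2, against 37.0% of all genes. NRXN2, NRXN3 and CNTNAP2 kept their sign under all 13 alternatives, while NLGN1 was higher without scaling to the section sum and by share of spots. Without that scaling all 8 members and 88.5% of all genes were higher, against 52.9% of all genes with it.

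Between BMS961+BMS641 and BMS753, NRXN3 and CNTNAP2 were higher and the other 6 lower. NLGN2 (-1.17, quadrant pairs -1.69 to -0.50), NLGN3 (-1.16, -1.91 to -0.14) and NLGN1 (-1.03, -1.42 to -0.59) were at least 2-fold lower over all spots. Among spots with 3000 to 5000 genes seen the NLGN3 levels were 31.54 and 35.81 ppm and their log2 ratio -0.18, so the call on NLGN3 did not hold there. These 3 of 8 stood beside 26.1% of all genes at least 2-fold lower and 8.27% at least 2-fold higher. Relative to the median of all genes, which was -0.64, NLGN1, NLGN2 and NLGN3 lay 0.39 to 0.53 lower over all spots, and none was then at least 2-fold lower. CNTNAP2 was then at least 2-fold higher (1.20). Quadrants were apart for 5 of the 8 and for 41.7% of all genes. Without scaling to the section sum, 73.7% of all genes were higher, against 23.5% with it. Then 5 members were higher, 2 of them at least 2-fold, and 0 were at least 2-fold lower. For NLGN1 the share of spots seen in place of the level gave a log2 ratio of 0.036.

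Partners of these proteins were followed in lists, whose counts are to be read against all genes compared: 65.0%, 36.2% and 64.8% were lower than VitaminA in ATRA, BMS753 and BMS961+BMS641. Of the presynaptic scaffolds that bind neurexin tails (CASK, the APBA adaptors and the LIN7 proteins), 5 of 6 were compared, and all 5 were lower than VitaminA in ATRA and in BMS961+BMS641 and 4 of 5 in BMS753. Their median log2 ratios were -0.995, -0.98 and -0.84, against -0.33, -0.26 and 0.31 for all genes, in the order ATRA, BMS961+BMS641 and BMS753. LIN7C, counted among the 5, reached 5 ppm only in VitaminA (7.805 ppm, against 0.7783, 1.027 and 0.4741 ppm in ATRA, BMS753 and BMS961+BMS641). It is in these counts and medians, and its direction was fixed by the 5 ppm filter. CASK, the kinase-like scaffold, was measured at 299.6 ppm in VitaminA, 149.8 ppm in ATRA, 152 ppm in BMS753 and 85.43 ppm in BMS961+BMS641. APBA2 was measured at 297.3, 128.1, 165.5 and 150.0 ppm in the same order.

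Postsynaptic ligands of neurexins other than neuroligins were split in direction. Of 21, 15 were compared, and 10, 8 and 11 of them were lower than VitaminA in ATRA, BMS753 and BMS961+BMS641, so that in ATRA the share lower was near that of all genes. At least 2-fold lower were 5, 3 and 5, beside 22.9%, 10.0% and 19.9% of all genes. At least 2-fold higher were 2, 2 and 1, beside 8.6%, 17.7% and 10.2% of all genes. ADGRL1, a latrophilin, was measured at 610.7 ppm in VitaminA and at 140.1, 89.64 and 278.6 ppm in ATRA, BMS753 and BMS961+BMS641. NXPH4, a neurexophilin, was measured at 98.54 ppm in VitaminA and at 43.56, 12.7 and 8.174 ppm in the ligand sections. Other ligands differed in direction between sections: CLSTN2, a calsyntenin, was measured at 415.5 ppm in VitaminA, 1205 ppm in ATRA, 263 ppm in BMS753 and 366.2 ppm in BMS961+BMS641. NXPH1 was measured at 105.8 ppm in VitaminA, 75.21 ppm in ATRA, 154 ppm in BMS753 and 358.9 ppm in BMS961+BMS641.

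Neuroligin partners and postsynaptic scaffolds were all compared, 17 of 17, with 10, 9 and 13 lower than VitaminA in ATRA, BMS753 and BMS961+BMS641, beside 65.0%, 36.2% and 64.8% of all genes. The share in ATRA was below that of all genes, and those in BMS753 and BMS961+BMS641 were above it. MDGA1, which binds neuroligins and blocks their contact with neurexins, had the lowest log2 ratio of this list in each comparison (-1.38, -0.76 and -1.48), with 80.29 ppm in VitaminA. GPHN, gephyrin, the scaffold of inhibitory synapses, was measured at 117.2 ppm in VitaminA, 111.9 ppm in ATRA, 157.6 ppm in BMS753 and 256.7 ppm in BMS961+BMS641. DLGAP1, of excitatory synapses, was measured at 674.7 ppm in VitaminA, 2344 ppm in ATRA, 678.9 ppm in BMS753 and 387.3 ppm in BMS961+BMS641.

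Among the axonal partners of contactin-associated proteins, 5 of 8 were lower in ATRA, 2 of 8 in BMS753 and 6 of 9 in BMS961+BMS641, shares near or below those of all genes (65.0%, 36.2% and 64.8%), so the counts show nothing about this list. KCNA2 entered the counts only in BMS961+BMS641 (7.911 ppm, against 3.418 ppm in VitaminA), and its direction was fixed by the 5 ppm filter. ANK2, an ankyrin, was measured at 510.1 ppm in VitaminA, 159.7 ppm in ATRA, 309.4 ppm in BMS753 and 154.9 ppm in BMS961+BMS641. EPB41L3, protein 4.1B, which anchors contactin-associated proteins, was measured at 101.7 ppm in VitaminA, 263.1 ppm in ATRA, 148.5 ppm in BMS753 and 98.96 ppm in BMS961+BMS641. Of the 3 KHDRBS proteins, which regulate the splicing of neurexins, KHDRBS3 was measured at 178 ppm in VitaminA and 55.66, 60.68 and 87.12 ppm in ATRA, BMS753 and BMS961+BMS641. KHDRBS1 went the other way, from 15.81 ppm to 144.1, 30.18 and 66.09 ppm.

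Of the other synaptic adhesion genes, 26 of 32 were compared, and 19, 9 and 17 were lower than VitaminA in ATRA, BMS753 and BMS961+BMS641, beside 65.0%, 36.2% and 64.8% of all genes, and the shares in BMS753 and BMS961+BMS641 were close to those. In VitaminA SLITRK1 (4.281 ppm), SLITRK2 (4.847 ppm) and LRFN3 (4.96 ppm) did not reach 5 ppm. SLITRK1 and SLITRK2 were compared through BMS753 (8.233 and 5.583 ppm), and LRFN3 through ATRA and BMS961+BMS641 (5.074 and 5.568 ppm). The filter thus fixed their direction in those comparisons. SLITRK3, of inhibitory synapses, was measured at 65.41 ppm in VitaminA and 6.793, 10.47 and 13.26 ppm in the ligand sections. LRFN2 was measured at 110.5 ppm in VitaminA, 1600 ppm in ATRA, 110.3 ppm in BMS753 and 78.05 ppm in BMS961+BMS641, and was seen in 75.4%, 99.3%, 60.1% and 69.9% of spots.

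Markers of cell types are given beside these values. Of 11 neuronal markers 9, 5 and 8 were lower than VitaminA in ATRA, BMS753 and BMS961+BMS641, beside 65.0%, 36.2% and 64.8% of all genes. Their median log2 ratios were -0.43, 0.19 and -0.66 against -0.33, 0.31 and -0.26 for all genes. Their summed levels were 892 ppm in VitaminA and 746, 1157 and 1268 ppm in the ligand sections, and the sum in BMS961+BMS641 held 533.2 ppm of STMN2, which stood at 14.28 ppm in VitaminA. The astroglial markers, 7 listed of 7, summed to 173.2, 155.9, 173.7 and 82.99 ppm, starting with VitaminA, of which MLC1 made up 78.26 ppm in ATRA and 3.622 ppm in VitaminA. The 6 mesenchymal markers summed to 231.6, 138.6, 166.5 and 85.78 ppm, of which LUM made up 139.6 ppm in VitaminA and PDGFRB 91.6 ppm in ATRA, against 17.96 ppm of PDGFRB in VitaminA. The 4 epithelial markers summed to 108, 72.95 and 96.63 ppm in VitaminA, ATRA and BMS753 and to 1445 ppm in BMS961+BMS641. There EPCAM stood at 920.8 ppm and CDH1 at 501.5 ppm, while KRT8 was at 18.66 ppm (52.53 ppm in VitaminA) and KRT18 at 3.594 ppm (2.755 ppm in VitaminA). The part of these markers in the levels of the 8 genes was not tested.

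Within sections, most spots held several members. The median number of members seen per spot was 6, 4, 5 and 5, in the order VitaminA, ATRA, BMS753, BMS961+BMS641, and all 8 were seen together in 16, 7, 9 and 13 spots. At least 1 neurexin and 1 neuroligin were seen together in 97.6%, 82.3%, 86.6% and 89.3% of spots. A spot can hold several cells, so seeing both in a spot does not place them in the same cell. The number of members seen followed the number of genes seen, with Spearman correlations over spots of 0.503, 0.707, 0.727 and 0.722. CNTNAP4, for example, was seen in 33.8% of the ATRA spots in the third with fewest genes seen and in 81.2% of those in the third with most, while in VitaminA these shares were 81.5% and 99.5%.

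Moran's I was low in size for the 5 longer members. This measure of the likeness of neighbouring spots in log2 signal with the spot factor divided out lay between 0.003 (NRXN2 in VitaminA) and 0.106 (NLGN1 in BMS753), while the median of all genes was 0.015 to 0.028. Several values still stood high among all genes, such as CNTNAP4 in VitaminA at the 90.1st percentile (0.094) and CNTNAP2 in ATRA at the 89.4th (0.093). The standard deviations of these values over quadrants were 0.092 and 0.105, about as large as the values. On ranks the values were 0.027 and 0.021, for which no percentile was computed. With the spot factor left in, Moran's I of NRXN3 in BMS961+BMS641 was 0.413 in place of 0.007, and that of CNTNAP2 in VitaminA 0.281 in place of 0.025. For NLGN2, NLGN3 and CNTNAP1 it reached 0.125, 0.256 and 0.345, in ATRA, ATRA and BMS753, and 0.049, 0.039 and 0.001 in the same places with the lowest class set at 0. Their correlations over spots behaved likewise: NLGN3 with CNTNAP1 averaged 0.439 over the 4 sections and 0.084 with that class at 0, and NLGN2 with NLGN3 averaged 0.302 and 0.074. These 3 genes stand late in the order of the tables, and their value fell as more genes were seen in a spot, with Spearman correlations down to -0.763 (CNTNAP1 in BMS753). Among the longer genes the pairs with the highest mean correlation were NRXN2 with NLGN1, at 0.121, NLGN1 with CNTNAP2, at 0.115, and NRXN2 with CNTNAP2, at 0.104.

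The genes most like each member over spots, by mean Spearman correlation over 4 sections among 11679 genes, had low values for the longer members. For NLGN1 they were B3GALT5 (0.184), PEX14 (0.170) and GABRA3 (0.165), and for CNTNAP2 they were 4930455D15RIK (0.171), FAM172A (0.162) and PARP8 (0.156). For NRXN2 they were ESR2 (0.156), ARHGEF3 (0.156) and FAM171A1 (0.153), for NRXN3 KCNMA1 (0.154), SGMS1 (0.140) and ASTN2 (0.134), and for CNTNAP4 COL15A1 (0.114), LTBP1 (0.114) and DENND5B (0.111). At this size, in sparse data, they are no finding. NLGN2, NLGN3 and CNTNAP1 had higher values with genes that also stand late in the tables, such as WFDC16 for NLGN2 (0.393), KRT9 for NLGN3 (0.581) and PPM1J for CNTNAP1 (0.589). In ATRA these partners correlated with the number of genes seen at -0.893, -0.884 and -0.922.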

How the data were processed

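Spatial expression was measured on 1 section per group, and all 4 tables were used. Each deposited value is the signal of a gene in a spot. The authors had quantile normalised it within each section, as the file names and the sorted values of spots show. The sorted values were shared only up to a factor per spot. This spot factor, the summed signal of a spot over the section's median, differed 25.6-fold within VitaminA to 43.7-fold within ATRA. In the mean over spots, spots with a larger factor weigh more. The submitters' processing notes name mm9 as the genome build. How reads were aligned, how molecules were counted and how spots were filtered is not given in the sources used here. With no count, how far depth limits the precision is unknown.

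Levels are means over spots in ppm of the section's sum. Log2 ratios were taken after adding 1 ppm, for genes that reached 5 ppm in 1 or both sections. With 1 section per group no p-value or standard error was computed. Spots form a checkerboard grid, and quadrants were cut at the median column and, within each side, at the median row. Moran's I used 8 grid neighbours. Spans came from RefSeq GRCm38.p6, to which 22187 of 22218 symbols were matched, and promoter windows from the same source. Named were all 8 members, up to 2 genes at each end of a partner list per comparison with VitaminA, from which some are described, and the 3 genes most like each member. The members and lists were chosen with earlier results of these data known. Alternatives changed the scaling, pseudocount, filter, summary, spots used and treatment of the lowest class. The level, ratio and Moran's I steps were tested on simulated data that held neither quantile normalisation nor a lowest class ordered by file position. The rule for the lowest class was checked on a short set of made-up values only. The tools were numpy 2.4.6, scipy 1.17.1 and pandas 2.3.3 under Python 3.11.15, with matplotlib 3.10.9 for figures.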

Additional observations from a re-analysis of the deposited data

How the results depend on the processing

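No paired analysis was possible because each group is 1 section with no shared replicate number, and no replicate could be left out. Of the 48 log2 ratios of members, 24 kept their sign under all 13 alternatives and 24 turned under at least 1. Leaving out edge spots, another filter, a pseudocount of 0.1 ppm and leaving out the top 10 genes moved none of the 48 beyond the spread of quadrant pairs. No scaling moved 39, the share of spots 38 with 1 more turning after a 2-fold call, centring on all genes 34 and the median over spots 31. Of 32 values of Moran's I, leaving the spot factor in moved 21 beyond the spread of quadrants, the lowest class at 0 moved 9, 4 neighbours 8 and ranks 2.

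The difference of the members' median from that of all genes is given first below, then the number of members at least 2-fold apart. For ATRA over VitaminA, -0.43 became -1.01 with the median over spots and -0.20 with the share of spots, and 3 members became 5, 1 and, centred, 1. For BMS753 over VitaminA, -0.28 became -1.30 with the median, 0.033 with the share, -0.17 with no filter and -0.093 within span classes, and 0 members became 2 without scaling, 3 with the median and 1 centred. For BMS961+BMS641 over VitaminA, -0.087 became -0.60 with the median and -0.005 within span classes, and 2 members became 1 without scaling, 4 with the median, 0 with the share and 1 centred. For BMS753 over ATRA, 0.024 became 0.25 with a pseudocount of 10 ppm and 0.26 within span classes, and 3 members became 1 with the spot factor divided out, 1 with that pseudocount, 0 with the share and 0 centred. For BMS961+BMS641 over ATRA, 0.016 became 0.22 with the lowest class at 0 and 0.34 with the median, and 1 member became 4 without scaling, 3 with the median, 0 with the share and 2 in spots of 3000 to 5000 genes seen. For BMS961+BMS641 over BMS753, -0.052 became -0.24 with a pseudocount of 10 ppm, 0.18 with the median, -0.25 with the share and 0.18 in those spots. The 3 members, all lower, became 0 with that pseudocount, 0 with the share and 1 centred, which was CNTNAP2 on the higher side. NLGN1 in that comparison turned from -1.03 to 0.036 with the share of spots. Setting the lowest class at 0 for spatial measures and using spots of 3000 to 5000 genes seen were chosen after the data were seen. The cause of these moves was not tested.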
